A study of Caenorhabditis elegans with 4 samples.

Results

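The Wnt ligand genes, the Frizzled receptor genes and mom-1 of the nematode Caenorhabditis elegans were read in total RNA from early embryos. These 10 genes, of 19380 named genes measured, were found by their sequence identifiers, with or without 1 isoform letter, and gave 15 of the 23181 transcripts on the arrays. They comprised 5 Wnt ligand genes (mom-2, lin-44, egl-20, cwn-1 and cwn-2), 4 Frizzled receptor genes (mom-5, lin-17, mig-1 and cfz-2) and mom-1. The last is neither a ligand nor a receptor but encodes the Porcupine acyltransferase, an enzyme of the secretory pathway that attaches a lipid to Wnt proteins.

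The samples were 4 single-colour NimbleGen arrays in 1 group, labelled as strain PFR40 with the allele tm1489 of hpl-2, and are written as arrays 1 to 4 after the replicate numbers. The product of hpl-2 is a chromatin protein of the heterochromatin protein 1 family. The embryos were released by bleaching from gravid adults of a liquid culture, and the worms are labelled as hermaphrodites among which a few were males. The growth protocol names N2, the wild-type strain, as their source, which goes against the genotype label. The 4 wild-type arrays that the design text sets against these were not analysed here, so no value below is a difference between mutant and wild type. No label states that the replicates were separate cultures, so p-values measure only the spread between these samples, which may be technical. Whole embryos were extracted, so fewer cells of a type and less RNA per cell cannot be told apart.

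Wnt proteins are secreted, lipid-modified signals that bind Frizzled receptors at the surface of nearby cells. In the early embryo of this nematode, MOM-2 made by the germline blastomere P2 acts through the Frizzled MOM-5 on the neighbouring cell EMS, whose posterior daughter then founds the intestine. The other ligands and receptors are known mainly from later events, such as the polarity of dividing epidermal and tail cells and the migration of neurons.

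Values are the authors' quantile-normalized signals on a linear scale. As the background, each array took the 95th percentile of 1343 chemoreceptor genes, which encode receptors of sensory neurons. This background was 272, 349, 306 and 357 on arrays 1 to 4. The log2 signal minus the log2 background of the same array was tested against 0 with limma over all 23181 transcripts, with Benjamini-Hochberg adjustment at 0.05. A gene was represented by its transcript with the highest mean. Signal also depends on each probe, so the levels of different genes were not ranked. The number of arrays limits the precision.

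Of the 10 genes, 9 gave signal above background and 1, egl-20, lay below it, while 51.9% of all named genes were above and 39.1% below. Leaving out each array in turn gave the same counts. The 9 were mom-2, lin-44, cwn-1, cwn-2, all 4 Frizzled genes and mom-1. The median of the 10 genes was 4.33 log2 above background, against 0.49 over all named genes and 3.90 over the named genes called above. Both transcripts were above background for each of the 5 genes with 2 of them, as were 55.1% of all transcripts. With the stricter 99th percentile of the chemoreceptors as background, lin-44 was no longer told apart from it (0.48 log2, limma adjusted p = 0.0848), and 8 of the 10 genes remained above, against 44% of all named genes.

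The labelled stage was checked against marker genes. All 11 maternal markers, among them the maternal cell fate regulators mex-3 and pie-1 at 6.23 and 4.85 log2, were above background, as were 7 of 9 early zygotic markers, among them end-1. The other 2, med-1 and med-2, were not told apart from it. Lists of tissue markers, which hold regulators of cell fate as well as genes of differentiated tissue, also gave signal. Above background were 8 of 8 muscle, 6 of 6 epidermis, 6 of 8 neuron and 5 of 7 endoderm markers. The neuron gene snt-1 and the endoderm gene cpr-1 were called below it, and rab-3 and asp-1 were not told apart from it. Also above background were 4 of 6 sperm and 6 of 8 eggshell and oocyte markers, against 51.9% of all named genes. The shares of the sperm, endoderm and neuron lists rest on few genes and were not tested against that share. All 6 vitellogenin genes of the adult intestine were called below background, against 39.1% of all named genes. Of these, vit-2, vit-3, vit-4 and vit-5 lay close to it, at -0.33, -0.29, -0.34 and -0.27 log2. The other 2, vit-1 and vit-6, lay at -0.86 and -0.67. Marker calls are given for this background only, and a call below it does not show that a transcript was absent. No marker was at 0 on any array, but neither was any other transcript, so this says nothing about the markers. The signal of hpl-2 was above background in all 3 of its transcripts, with means of 1450 to 2477, and the position of its probes relative to the allele was not given in the sources used here.

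**Figure D1:**
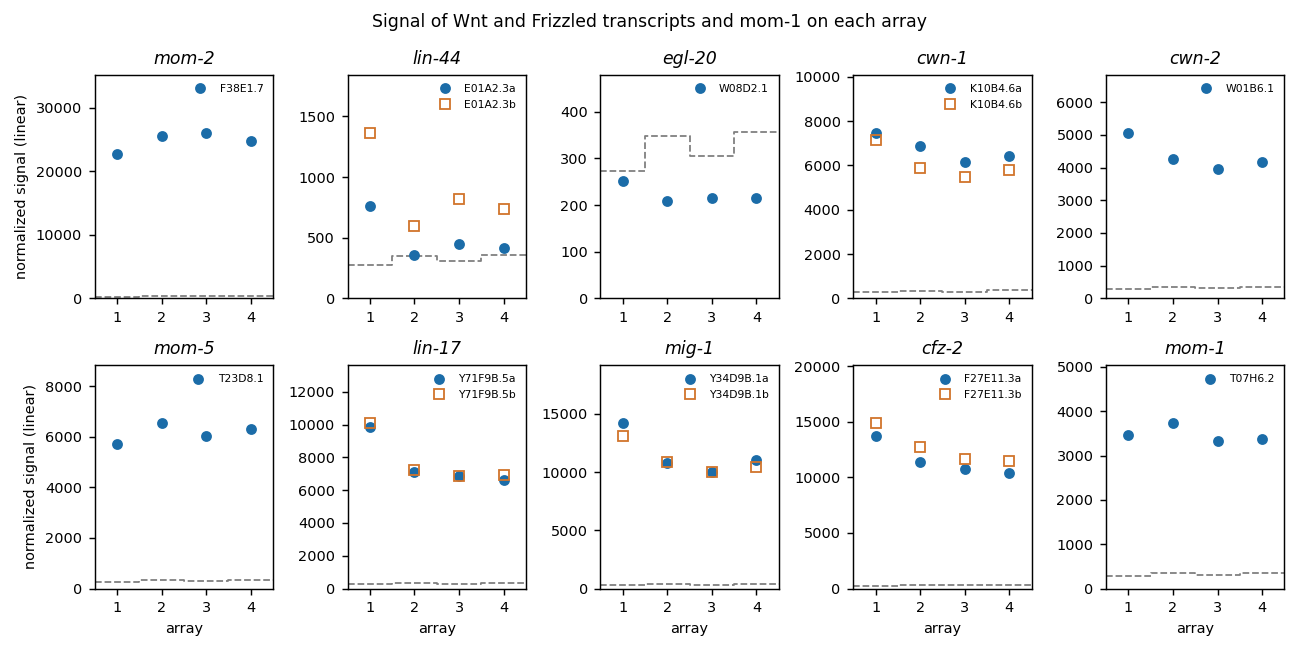
Normalized signal on a linear axis against array number, 1 panel for each gene and 1 symbol for each transcript. The dashed line is the background of each array. The 4 values of mom-2 and of every Frizzled transcript lay far above it, those of egl-20 lay below it, and those of lin-44 approached it on array 2.

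Among the ligands, mom-2, the Wnt of the signal from P2 to EMS, gave steady signal far above background. Its single transcript F38E1.7, on chromosome V, read 22659, 25559, 26064 and 24772 on arrays 1 to 4, a mean of 24764 ± 1500 (SD, n = 4). The lowest value was that of array 1, and the highest exceeded it by 1.15-fold. The signal lay 6.28 ± 0.14 log2 above background (SD, n = 4, limma adjusted p = 2.58e-10).

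The related ligands cwn-1 and cwn-2, which act in the guidance of migrating cells and neurites, were also clearly present. The transcript K10B4.6a of cwn-1, on chromosome II, read 7485, 6897, 6141 and 6430 on arrays 1 to 4, and K10B4.6b read 7162, 5880, 5462 and 5808. Both were highest on array 1 and lowest on array 3. They lay 4.40 ± 0.27 and 4.24 ± 0.32 log2 above background (SD, n = 4, limma adjusted p = 1.47e-09 and 3.84e-09). The transcript W01B6.1 of cwn-2, on chromosome IV, read 5071, 4262, 3957 and 4181, and lay 3.77 ± 0.31 log2 above background (limma adjusted p = 7.36e-09). Its value on array 1 exceeded the next by 1.19-fold, while the other 3 arrays spanned 1.08-fold.

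The ligand lin-44, known for orienting the divisions of tail cells, had the widest range between arrays of the 10 genes. Its transcript E01A2.3b, on chromosome I, read 1368, 599, 820 and 733 on arrays 1 to 4, a 2.28-fold range. The values of E01A2.3a had the same order, at 761, 361, 449 and 417. Both transcripts were highest on array 1 and lowest on array 2, where E01A2.3a lay 0.05 log2 above background. Over the 4 arrays E01A2.3b lay 1.39 ± 0.68 log2 above background (SD, n = 4, limma adjusted p = 0.000395) and E01A2.3a 0.58 ± 0.64 (adjusted p = 0.0311). The call of E01A2.3a ended without array 3 (0.59 log2, limma adjusted p = 0.0833) and with a robust variance estimate (adjusted p = 0.106).

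The ligand egl-20, which directs the migration of Q neuroblasts in the larva, had signal within the range of the chemoreceptor genes. Its transcript W08D2.1, on chromosome IV, read 251, 210, 215 and 215 on arrays 1 to 4, with an SD of 0.12 on the log2 scale (n = 4). These values placed it above 93.4% of the chemoreceptor genes on array 1 and above 83.7% to 87.5% of them on the other arrays. Against the 95th percentile its value was -0.52 ± 0.29 log2 (SD, n = 4, limma adjusted p = 0.00327). The direction depended on where the background was set, since lower settings put egl-20 above it. Its value was then 0.31 log2 with the chemoreceptors' 75th percentile (limma adjusted p = 0.00913, 70.1% of all named genes above) and 0.18 log2 with the 25th percentile of all transcripts (adjusted p = 0.0306, 66.1% above).

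The 4 Frizzled receptor genes were each above background in every transcript. The receptor mom-5, which receives the MOM-2 signal in EMS, read 5697, 6556, 6035 and 6322 on arrays 1 to 4 for its transcript T23D8.1 on chromosome I. Like mom-2, it was lowest on array 1, as were 54.9% of the named genes above background, and its range was 1.15-fold. It lay 4.27 ± 0.10 log2 above background (SD, n = 4, limma adjusted p = 3.52e-10).

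The other receptors were highest on array 1. For lin-17, a Frizzled of asymmetric cell division that acts with lin-44 in the tail, the transcript Y71F9B.5b on chromosome I read 10118 on array 1 and 7225, 6847 and 6952 on arrays 2 to 4. The step from array 1 to the next array was 1.40-fold, while the other 3 arrays spanned 1.06-fold, and the second transcript Y71F9B.5a, at 9876, 7095, 6849 and 6604, stepped by 1.39-fold. The gene lay 4.59 ± 0.43 log2 above background (SD, n = 4, limma adjusted p = 8.41e-09).

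For mig-1, a Frizzled of Q neuroblast migration, the transcript Y34D9B.1a on chromosome I read 14230, 10815, 10035 and 11051 on arrays 1 to 4. The second transcript, Y34D9B.1b, read 13050, 10818, 9964 and 10425. Array 1 was highest and array 3 lowest for both. The gene lay 5.16 ± 0.37 log2 above background (SD, n = 4, limma adjusted p = 1.76e-09).

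For cfz-2, a Frizzled that acts in the migration of neurons, the transcript F27E11.3b on chromosome V read 14914, 12758, 11692 and 11443, and F27E11.3a read 13689, 11360, 10726 and 10426. Both were highest on array 1 and lowest on array 4. The gene lay 5.31 ± 0.33 log2 above background (SD, n = 4, limma adjusted p = 9.65e-10).

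The Porcupine gene mom-1 showed the narrowest range of the 10 genes. Its transcript T07H6.2, on the X chromosome, read 3466, 3739, 3329 and 3380 on arrays 1 to 4, a 1.12-fold range. It was highest on array 2, and lay 3.45 ± 0.17 log2 above background (SD, n = 4, limma adjusted p = 2.45e-09).

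**Figure D2:**
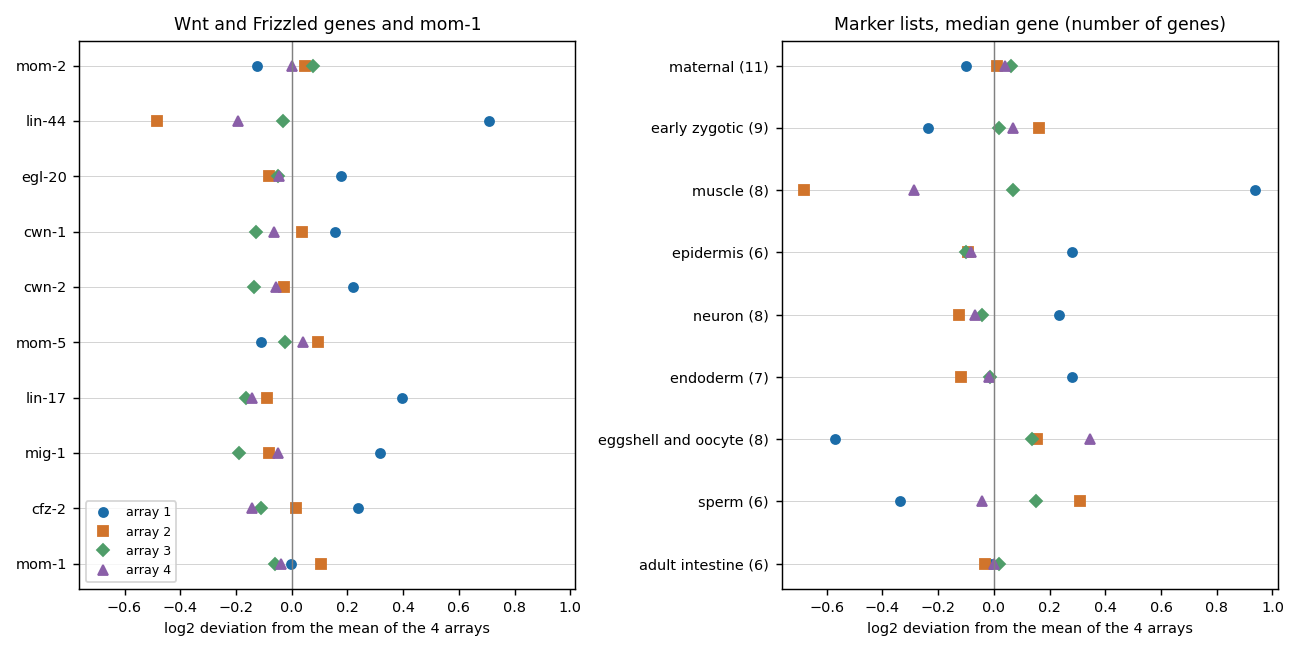
Log2 deviation of each array from the mean of the 4 arrays, for each of the 10 genes (left) and for the median gene of each marker list (right, number of genes in parentheses). Array 1 lay to the right for 7 of the 10 genes, and to the left for mom-2 and mom-5. Among the lists it lay to the left for the maternal (-0.10), early zygotic (-0.24), sperm (-0.34) and eggshell and oocyte (-0.57) markers.

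Array 1 held 65.6% of the summed squared log2 deviations of the 10 genes from their 4-array means, against 58.8% over all named genes above background. It was the highest array for 7 of the 10 genes (lin-44, egl-20, cwn-1, cwn-2, lin-17, mig-1 and cfz-2), as for 28.1% of all named genes, and the lowest for mom-2 and mom-5, as for 45.3% of all named genes. These are descriptions of single arrays in 1 group and carry no test. The log2 deviation of array 1 from the mean of the 4 arrays had a median of 0.20 over the 10 genes and of -0.04 over all named genes. It was 0.71 for lin-44, 0.40 for lin-17, 0.32 for mig-1, 0.24 for cfz-2, 0.22 for cwn-2, 0.18 for egl-20 and 0.16 for cwn-1. It was -0.13 for mom-2, -0.11 for mom-5 and -0.0036 for mom-1. On arrays 2, 3 and 4 the medians of the 10 genes were -0.0073, -0.087 and -0.053.

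The background of the array was lowest on array 1. On the scale of log2 signal above that background, all deviations of array 1 shift upwards by the same amount. The medians on array 1 were then 0.43 for the 10 genes and 0.19 for all named genes, and mom-2 and mom-5 turned to 0.10 and 0.12. On that scale mom-2 and mom-5 remained lower on array 1 than the median named gene.

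**Figure D3:**
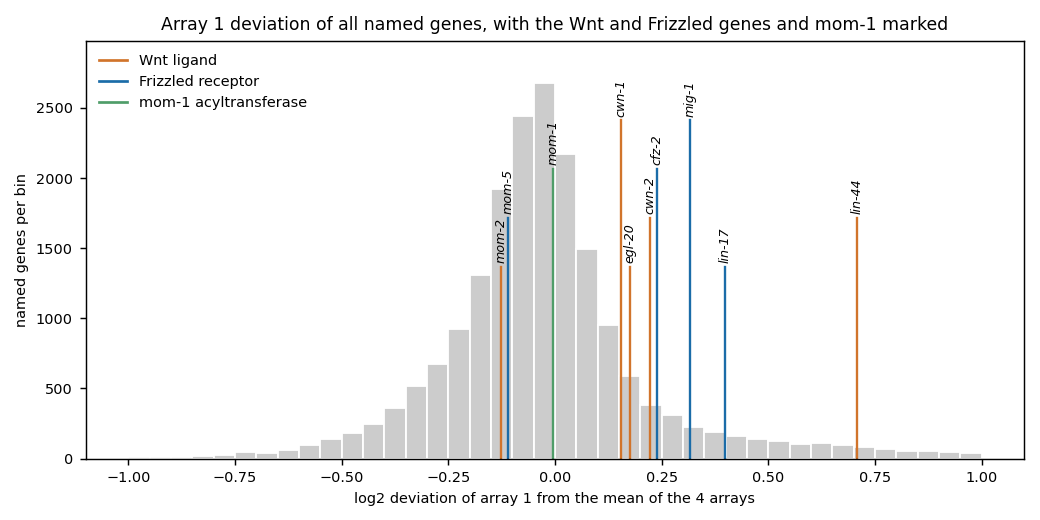
Histogram of the log2 deviation of array 1 from the mean of the 4 arrays over all named genes, in bins of equal width from -1 to 1, with a further 273 genes outside that span. Vertical lines mark the 10 genes (their height carries no value). lin-44 lay above 97.0% of the named genes and mom-2 above 28.5%.

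Marker lists moved with array 1 as well, and their part in these values was not tested. All 11 maternal markers were lowest on array 1, with a median deviation of -0.10 and a summed signal of 235350 there, against 257442 to 267901 on the other arrays. The 9 early zygotic markers were also all lowest on array 1 (median -0.24), with a sum of 24432 there and 27504 to 30047 elsewhere. The muscle list, with 7 of 8 genes highest on array 1, had a median deviation of 0.94, and its summed signal was 59291 on array 1 and 31144 to 37333 on the others. On arrays 2, 3 and 4 the muscle medians were -0.68, 0.07 and -0.29. Epidermis, neuron and endoderm markers had medians of 0.28, 0.23 and 0.28 on array 1, with 6 of 6, 5 of 8 and 6 of 7 genes highest there. Their sums on array 1 were 90469, 22932 and 24532, and on the other arrays 68740 to 72304, 15589 to 16138 and 15477 to 16896. Eggshell and oocyte markers lay at -0.57 on array 1, with a sum of 41385 against 65258 to 76015. Sperm markers lay at -0.34, with a sum of 3468 against 4577 to 6462.

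Without array 1 the 10 genes, apart from lin-44, differed little between arrays, and the same held for the median named gene. The median SD of the 10 genes was 0.14 log2 over the 4 arrays and 0.07 over arrays 2 to 4, against 0.12 and 0.08 over all named genes. Only lin-44 among the 10 spanned more than 1.5-fold over the 4 arrays, as did 15.4% of all named genes. Without array 1 its range was 1.37-fold, and none of the 10 then exceeded 1.5-fold, against 4.37% of all named genes. The range of lin-17 dropped from 1.48-fold to 1.06-fold when array 1 was left out, and that of mig-1 from 1.42-fold to 1.10-fold. The isoform pairs followed each other across arrays. The deviations of the 2 transcripts of a gene differed by at most 0.09 log2 on any array, for lin-44 by 0.08, for cwn-1 by 0.09, for lin-17 by 0.04, for mig-1 by 0.07 and for cfz-2 by 0.03. Whether the 2 transcripts of a gene shared probes is not given in the sources used here.

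The genes with the most similar array pattern were sought for lin-44, lin-17 and mig-1, the 3 genes of largest SD among the 9 above background. Likeness was the Euclidean distance between log2 deviations over 4 arrays, among 10057 other genes above background, and says nothing of function. The nearest to lin-44 were ptp-1, F47G9.4 and mlt-8, at distances of 0.034, 0.038 and 0.047, with 27 genes within 0.1. The nearest of these, ptp-1, read 9564, 4083, 5741 and 5027 on arrays 1 to 4. The nearest to lin-17 were gei-1, bus-22 and the ephrin gene vab-2 at 0.032, 0.041 and 0.041, with 55 within 0.1. The nearest to mig-1 were cyn-6 and the homeobox genes ceh-5 and ceh-45 at 0.014, 0.017 and 0.020, with 128 within 0.1. None of these 9 was among the nearest when array 1 was left out. Then 148, 4933 and 3293 genes lay within 0.1 of lin-44, lin-17 and mig-1. With so many genes that near, the loss of the same 3 says little.

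**Figure D4:**
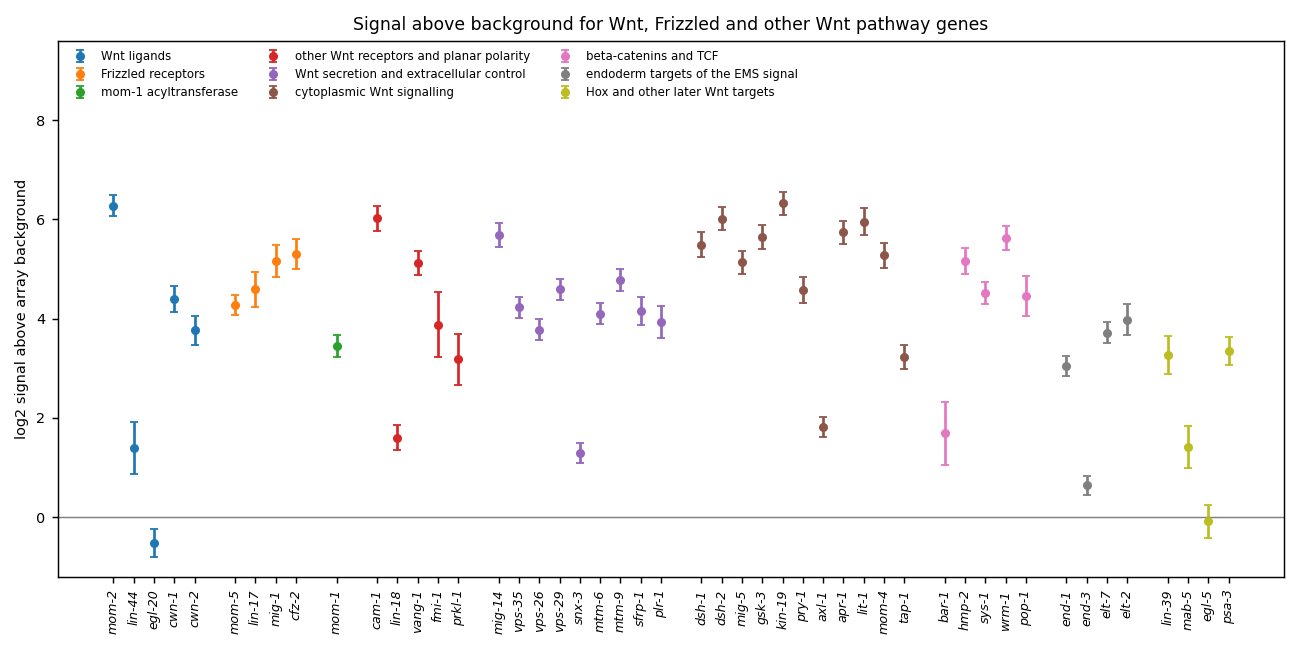
Log2 signal above the array background, with 95% confidence intervals from limma (n = 4 arrays), for the Wnt and Frizzled genes, mom-1 and the other Wnt pathway genes, coloured by list. Only egl-20 and egl-5 had estimates below 0. Levels of different genes are not comparable because probes differ.

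Most of the other genes of the pathway were above background. Of 38 further genes in 6 lists, 37 were above background, against 51.9% of all named genes, and 1, the Hox gene egl-5, was not told apart from it. Their median was 4.19 log2 above background. All 5 other receptors and planar polarity genes passed, among them the Ror kinase gene cam-1 at 6.02 ± 0.23 log2 (SD, n = 4) and the Ryk gene lin-18 at 1.60 ± 0.24, which encode Wnt receptors of other families. All 9 genes of secretion and extracellular control passed, including mig-14, the Wntless carrier of Wnt proteins, at 5.69 ± 0.21, the retromer gene vps-35 at 4.23 ± 0.12 and sfrp-1, a secreted Wnt antagonist, at 4.15 ± 0.31.

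The 11 genes of cytoplasmic Wnt signalling were all above background in these whole embryos. The Dishevelled genes dsh-2, mig-5 and dsh-1 lay at 6.02 ± 0.18, 5.13 ± 0.20 and 5.49 ± 0.23 log2 (SD, n = 4), and the kinase genes gsk-3 and lit-1 at 5.65 ± 0.22 and 5.96 ± 0.29. All 4 beta-catenin genes and pop-1, the TCF factor, passed. The beta-catenins wrm-1 and sys-1 of asymmetric division lay at 5.63 ± 0.21 and 4.51 ± 0.16, while bar-1, the beta-catenin of canonical signalling in the larva, lay at 1.69 ± 0.85 (limma adjusted p = 0.000431). The signal of bar-1 was 2002, 636, 940 and 933 on arrays 1 to 4, a 3.15-fold range.

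Targets of the pathway were above background as well, except egl-5. The endoderm factors end-1 and end-3, switched on in the posterior daughter of EMS, lay at 3.04 ± 0.09 and 0.64 ± 0.06 log2 above background (SD, n = 4, limma adjusted p = 2.43e-09 and 9.47e-05). The signal of end-1 was 2229, 3138, 2468 and 2754 on arrays 1 to 4, lowest on array 1 as was that of end-3. The later intestinal factors differed from this, with elt-2 highest on array 1 (6131, against 4420 to 5132 on the others) and elt-7 lowest on array 3 (4048, 4472, 3834 and 4501). With the 99th percentile as background, end-3 lay below it at -0.27 log2 (limma adjusted p = 0.00713), as did 51% of all named genes. The Hox genes lin-39 and mab-5 lay at 3.26 ± 0.47 and 1.41 ± 0.52, and egl-5 at -0.08 ± 0.37 (limma adjusted p = 0.584), which was called below without array 1 (-0.26, adjusted p = 0.0310), as were 41.5% of all named genes.

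The array differences of these genes had both directions. Array 1 was the highest for 23 of the 38 genes and the lowest for 10, with a median deviation of 0.05 log2. Over all named genes these shares were 28.1% and 45.3%, with a median of -0.04. The 4 endoderm targets had a median of -0.14 on array 1, with 1 gene highest and 2 lowest there. All 4 of the Hox and later targets were highest on it, with a median of 0.39. The planar polarity genes fmi-1, a Flamingo cadherin, and prkl-1, a Prickle homolog, deviated by 1.05 and 0.72 on array 1, and bar-1 by 0.96. In the secretion list 6 of 9 genes were lowest on array 1, among them vps-35 (-0.19), mtm-6 (-0.23) and snx-3 (-0.37), and the list's median was -0.08. The cytoplasmic genes had a median of 0.04 on array 1 and a median range of 1.10-fold over the 4 arrays, against 1.25-fold for the 10 genes and 1.20-fold over all named genes.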

How the data were processed

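NimbleGen labelled the total RNA with the dye Cy3, per the labels' protocols. The deposited tables hold linear intensity values, which the authors had quantile normalized and then averaged over the probes of a transcript, per the file headers and naming. The sources used here do not give the scanner, background correction, number of probes or genome build. Quantile normalization hides any shift of most transcripts between arrays. The series table held the same values (largest difference 0).

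Names came from the RefSeq table of WBcel235, where 17151 transcripts matched as written, 5352 without the isoform letter and 678 not at all. Log2 signal minus each array's chemoreceptor background was fitted with limma 3.58.1 (R 4.3.3, lmFit and eBayes, intercept only), two-sided, and the steps were tested on simulated data. All 4 arrays form 1 group, with upper quartiles of 5748 to 5805.

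The 10 genes, the 6 pathway lists, the 9 marker lists and the tests were chosen with earlier results of these data known. Named were all transcripts of the 10 genes, pathway genes with their values and, for likeness, the nearest 3 genes of each of 3 genes. Alternatives were 3 other backgrounds, 1 background for all arrays, trended or robust variances, each replicate left out, transcript means, and 16 added before log2.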

Additional observations from a re-analysis of the deposited data

Results flagged for a closer look

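With 4 arrays, 5 of the 53 Wnt pathway values examined (15 transcripts and 38 further genes) had an array whose gap to the nearest other array, as a share of the whole range, exceeded Dixon's 95% critical value. Chance flags about 1 in 20 such groups, and 7.83% of all named genes met the same limit, 65% of them through array 1. Array 1 was the distant one for egl-20 (251, against 210 to 215 on the others), for the transcript Y71F9B.5b of lin-17 (10118, against 6847 to 7225), for lin-39 (4232, against 2672 to 2850) and for mab-5 (1233, against 725 to 789). Array 2 was the distant one for apr-1, low at 16495 against 17175 to 17266.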

How the results depend on the processing

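Signal calls were little affected by the settings tried. Of the 175 values for the 15 transcripts under alternatives, 169 kept direction and side of the threshold, as did 450 of 456 for the 38 other pathway genes. The exceptions lay near background. With the chemoreceptors' 75th percentile or the 25th percentile of all transcripts, egl-20 turned to 0.31 and 0.18 and egl-5 to 0.75 and 0.62. At these settings 0 of the 10 genes were below, against 14.3% and 20.5% of all named genes. With the 99th percentile, lin-44 lost its call (0.48), and E01A2.3a and end-3 turned to -0.33 and -0.27. Of the 38 genes, 2 were then below instead of 0, against 51% of all named genes. With 1 replicate left out, egl-5 ranged up to 0.0091 (without array 2) and from -0.26 (without array 1, when it was called below). The count of the 38 genes called below then ranged from 0 to 1, against 36.9% to 41.5% of all named genes. E01A2.3a lost its call without array 3 and with robust variances.

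Subtracting the array background moved the median deviations of the 10 genes to 0.43, -0.14, -0.02 and -0.21 on arrays 1 to 4 and their median SD to 0.30 (0.18 over all named genes), and array 1 was then highest for 9 of them, against 72.3% of all named genes. With each other array left out, a setting added after seeing the data, array 1 was highest for 7 to 8. The share of all named genes at that setting is not given here, so this count has no comparison. The count with a range over 1.5-fold was 0 to 1 with 1 array left out, against 4.37% to 14.5% of all named genes. Of the 9 nearest genes, 0 were found without array 1, when 148 to 4933 genes lay within 0.1. The cause was not tested. No paired analysis was possible because there is 1 group. Signals near background limit egl-20, lin-44, end-3 and egl-5.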
